A study of Mus musculus with 12 samples.

Results

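The acute phase proteins are plasma proteins whose production by the liver shifts during inflammation, and 10 of their genes were examined here by name in a mouse liver array study: Lcn2, Lbp, Saa1, Saa2, Saa3, Saa4, Orm2, Orm3, Hp and Hpx. All 10 were measured, by 13 probe sets of the 45101 on the array, among 18194 genes with a symbol of their own. The study asked how glucose sensing by the liver bears on the response of beta cells to glucose, and compared livers labelled LG2KO with control livers. The labels do not spell out LG2KO, which is read here as a loss of the glucose transporter Glut2, encoded by Slc2a2. The 4 groups were LG2KO, tamoxifen treated, fasted and then refed; control, fasted and then refed; LG2KO, tamoxifen treated, fasted; and control, fasted. Each group had 3 arrays, each array held RNA pooled from 3 animals, and all animals had a mixed SV129 and C57Bl/6 background. The source description of the fasted LG2KO arrays says fasted and refed, whereas their titles and diet labels say fasted, which was followed. Control arrays carry no tamoxifen label, so the effects of genotype and of tamoxifen cannot be told apart. The sources used here do not give the age and sex of the animals, the length of the fast or the Cre driver of the deletion.

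Acute phase genes are switched on in hepatocytes mainly by cytokines. Interleukin 6 acts through its receptor and the transcription factor STAT3, interleukin 1 and tumour necrosis factor act through NF-kappaB, and factors of the C/EBP family work with both, while glucocorticoids reinforce the response. In mouse liver the serum amyloid A genes Saa1 and Saa2 are among the most inducible of the set, whereas haptoglobin and haemopexin are already abundant in plasma at rest.

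The genes lie in a few clusters of mouse assembly GRCm38.p6. The serum amyloid A genes share a stretch of chromosome 7, with Saa3 at chr7:46711998-46719615, Saa4 at chr7:46727992-46732603, Saa1 at chr7:46740497-46743181 and Saa2 at chr7:46751833-46754313. Orm3 at chr4:63356069-63359506 and Orm2 at chr4:63362449-63365877 lie side by side on chromosome 4. Lcn2 lies at chr2:32384637-32387739, Lbp at chr2:158306493-158332852, Hp at chr8:109575128-109579172 and Hpx at chr7:105591611-105600116. Neighbouring members are close copies of each other, and RNA of 1 copy can bind the probes of another, so Saa1 with Saa2, and Orm2 with Orm3 and Orm1, are uncertain as separate genes. The names add to this for the first pair. RefSeq lists Saa2 as a synonym of Saa1 and Saa1 as a synonym of Saa2, and the dimmer of the 2 probe sets annotated to Saa1 carries an accession that RefSeq gives to Saa2.

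The start regions of 5 members are shown. They are that of Lcn2 and those of Saa1 with Saa2 and Orm2 with Orm3, which show how alike the copies are. RefSeq's table for GRCm38.p6 held 8 of the 10 members and no entry for Lbp and Hp. Each entry ran from 250 bases before to 50 bases after a transcript start, read 5′ to 3′ on the strand of the gene. For Orm3, Saa1 and Saa3 the start that the table uses lies inside the gene bounds given above, so their regions are not those before the outermost start. Capitals mark matches to motifs searched on both strands: TTNNGNAA, a C/EBP-like pattern, and GGGNNNNNCC, an NF-kappaB-like pattern, where N is any base. In Saa1 a match of each kind adjoin and form 1 run of capitals.
Lcn2, minus strand, chr2:32387690-32387989: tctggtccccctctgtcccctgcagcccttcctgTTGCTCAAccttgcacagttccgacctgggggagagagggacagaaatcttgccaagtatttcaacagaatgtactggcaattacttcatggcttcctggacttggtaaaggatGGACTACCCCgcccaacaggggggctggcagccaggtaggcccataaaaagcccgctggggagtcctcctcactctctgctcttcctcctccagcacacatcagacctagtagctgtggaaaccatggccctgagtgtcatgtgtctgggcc
Saa1, minus strand, chr7:46742931-46743230: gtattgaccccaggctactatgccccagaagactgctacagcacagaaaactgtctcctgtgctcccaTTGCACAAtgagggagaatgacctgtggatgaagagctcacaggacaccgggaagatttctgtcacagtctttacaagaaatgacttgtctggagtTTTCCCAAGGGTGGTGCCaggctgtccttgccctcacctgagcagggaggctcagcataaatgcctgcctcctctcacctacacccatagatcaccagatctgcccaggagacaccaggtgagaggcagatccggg
Saa2, plus strand, chr7:46751583-46751882: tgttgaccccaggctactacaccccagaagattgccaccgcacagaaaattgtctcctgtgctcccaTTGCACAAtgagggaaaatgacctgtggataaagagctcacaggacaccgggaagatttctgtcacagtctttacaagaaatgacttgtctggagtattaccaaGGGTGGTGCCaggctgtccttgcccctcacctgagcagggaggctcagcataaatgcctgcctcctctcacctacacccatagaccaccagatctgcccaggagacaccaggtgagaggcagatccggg
Orm2, plus strand, chr4:63362199-63362498: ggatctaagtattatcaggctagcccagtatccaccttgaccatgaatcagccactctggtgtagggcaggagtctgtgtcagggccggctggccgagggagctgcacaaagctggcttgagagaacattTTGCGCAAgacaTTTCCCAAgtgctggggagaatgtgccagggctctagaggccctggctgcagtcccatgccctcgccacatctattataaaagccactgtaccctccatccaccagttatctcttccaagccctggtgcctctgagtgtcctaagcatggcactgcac
Orm3, plus strand, chr4:63355908-63356207: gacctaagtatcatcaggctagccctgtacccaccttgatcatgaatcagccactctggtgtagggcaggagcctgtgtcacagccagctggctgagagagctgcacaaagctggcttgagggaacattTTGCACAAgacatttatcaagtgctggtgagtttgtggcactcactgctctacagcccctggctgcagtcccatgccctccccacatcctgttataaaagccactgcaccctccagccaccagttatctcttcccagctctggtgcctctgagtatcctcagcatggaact

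The Saa1 and Saa2 start regions were identical at 95.3% of aligned positions and those of Orm2 and Orm3 at 86.2%, whereas the other 26 pairs of members lay between 43.3% and 51.4%. The C/EBP-like pattern was found in 8 of the 8 member regions, against 40.7% of 32851 regions of this length in the table. The NF-kappaB-like pattern was found in 4 of 8, namely Lcn2, Saa1, Saa2 and Saa4, against 50.8% of all regions. A STAT-like pattern, TTCNNNGAA, was found in 0 of 8, against 8.30% of all regions. These matches describe the letters in this window and show no binding.

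The labels were borne out by the transcript of Slc2a2, which lay between 3.56 and 4.13 on the 6 LG2KO arrays and between 10.002 and 11.30 on the 6 control arrays. All levels here are log2 values as deposited, so a difference of 1 is a doubling. Of 12 hepatocyte markers 11 were measured, none below the median of its arrays, and their mean level lay between 12.72 and 13.14 on all arrays. Control refed replicate 1 and LG2KO fasted replicate 3 stood apart from the arrays of their groups, with correlations across genes down to 0.984 and 0.983 against at least 0.994 in the groups that do not hold them. Control fasted replicate 3 carried exocrine pancreas transcripts, with a mean level of 7.98 for 9 markers against at most 5.498 on any other array. A gene counts as passing with an adjusted p below 0.05 in limma's moderated test, with Benjamini-Hochberg adjustment across the 18194 genes. In bulk liver, fewer cells of a type and less RNA per cell cannot be told apart.

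In refed livers Lcn2 and Lbp were higher in LG2KO than in control, and the 8 other members did not pass. Lcn2 encodes lipocalin 2, a secreted protein that captures the iron carriers of bacteria. Its level was 10.37, 10.77 and 12.17 in refed LG2KO livers, against 8.49, 8.52 and 7.79 in refed controls. The groups did not overlap, and the third LG2KO array was far above the other two. The difference was 2.84 ± 0.48 (SE, n = 3 arrays each), or 7.15-fold, with a 95% interval of 1.79 to 3.89 and an adjusted p of 0.036 in limma's test. Lbp encodes a protein that binds bacterial lipopolysaccharide and hands it to CD14. On its brighter probe set its level was 11.74, 11.90 and 11.94 in refed LG2KO livers, against 11.34, 11.30 and 11.25 in refed controls. The arrays of each genotype lay close together, and the smaller difference of 0.57 ± 0.08, or 1.48-fold, therefore passed with an adjusted p of 0.0167. On the dimmer probe set of Lbp the difference was 0.83 ± 0.13, with an adjusted p of 0.0316 in a fit over all probe sets, in which 0.12% of probe sets passed. In the fit over genes 0.379% of genes passed in this comparison, and the 2 of 10 members that passed had been known from earlier results when the members were chosen.

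The Lcn2 call in refed livers was sensitive to single arrays. It was lost without LG2KO refed replicate 2 or 3 or without control refed replicate 1, 2 or 3 (adjusted p = 0.0652 to 0.111), and the Lbp call was lost without LG2KO refed replicate 3 or without control refed replicate 2 or 3 (adjusted p = 0.0607 to 0.0967). Without control refed replicate 1 and LG2KO fasted replicate 3 together, the difference of Lcn2 was 2.95 (adjusted p = 0.0542) and that of Lbp 0.59 (adjusted p = 0.0122).

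The orosomucoid genes encode alpha-1-acid glycoproteins, carriers of lipophilic compounds in plasma. Orm2 was at 9.37, 9.16 and 11.12 in refed LG2KO livers, against 8.42, 8.84 and 7.81 in refed controls. Its difference was 1.53 ± 0.51 with a 95% interval of 0.41 to 2.65, and it did not pass (adjusted p = 0.329). Without LG2KO refed replicate 3 it was 0.91. Orm3 was at 7.46, 7.49 and 8.12 in refed LG2KO livers, against 6.95, 7.43 and 6.13 in refed controls. The arrays of Orm3 did not overlap either, by a margin of hundredths, and its difference of 0.85 ± 0.36 had an adjusted p of 0.484. Without control refed replicate 3 it was 0.50. Thus 4 of the 10 members, Lcn2, Lbp, Orm2 and Orm3, had all refed LG2KO arrays above all refed control arrays, as did 10.3% of all genes.

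The serum amyloid A proteins travel on high-density lipoprotein during the acute phase. Saa1 was at 11.78, 12.32 and 13.29 in refed LG2KO livers, against 10.96, 11.90 and 10.24 in refed controls. Saa2 was at 9.49, 10.49 and 12.40 in refed LG2KO livers, against 8.64, 9.80 and 8.18 in refed controls. In both genes the first LG2KO array lay below the second control array, so the groups overlapped. The differences were 1.43 ± 0.51 for Saa1 and 1.92 ± 0.68 for Saa2, with 95% intervals of 0.31 to 2.54 and 0.44 to 3.40 and adjusted p-values of 0.378 and 0.369. Without LG2KO refed replicate 3 that of Saa2 was 1.12 and that of Saa1 1.01. The dimmer Saa1 probe set gave 1.58 ± 0.52, and the values of both sets correlated at r = 0.99 over the 12 arrays. Saa3, which macrophages and fat cells also make in mice, was at 8.58, 9.19 and 9.11 in refed LG2KO livers, against 8.45, 8.90 and 8.02 in refed controls (0.50 ± 0.27, adjusted p = 0.64). Saa4, which in contrast to the others is made steadily, was at 10.99, 12.08 and 11.62 in refed LG2KO livers, against 11.42, 11.07 and 10.67 in refed controls (0.51 ± 0.26, adjusted p = 0.611). For both Saa3 and Saa4 the groups overlapped, and the intervals ran from below 0 to 1.09 and 1.08. Leaving out control refed replicate 3 gave 0.28 for Saa3 and 0.32 for Saa4, and leaving out LG2KO refed replicate 2 gave 0.25 for Saa4. Leaving out LG2KO refed replicate 1 gave 0.80 for Saa4.

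Haptoglobin, which binds free haemoglobin, and haemopexin, which binds free haem, did not pass between the genotypes in refed livers, with narrow intervals. Hp was at 14.19, 14.14 and 14.24 in refed LG2KO livers, against 14.25, 14.25 and 14.22 in refed controls. Hpx was at 14.05, 14.07 and 14.12 in refed LG2KO livers, against 14.04, 14.08 and 14.03 in refed controls. The 95% intervals of the differences were -0.14 to 0.04 for Hp and -0.06 to 0.11 for Hpx. Both genes lay above the 99.9 percentile of genes on every array, and whether values so close to the top of the scale compress differences was not tested.

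**Figure D1:**
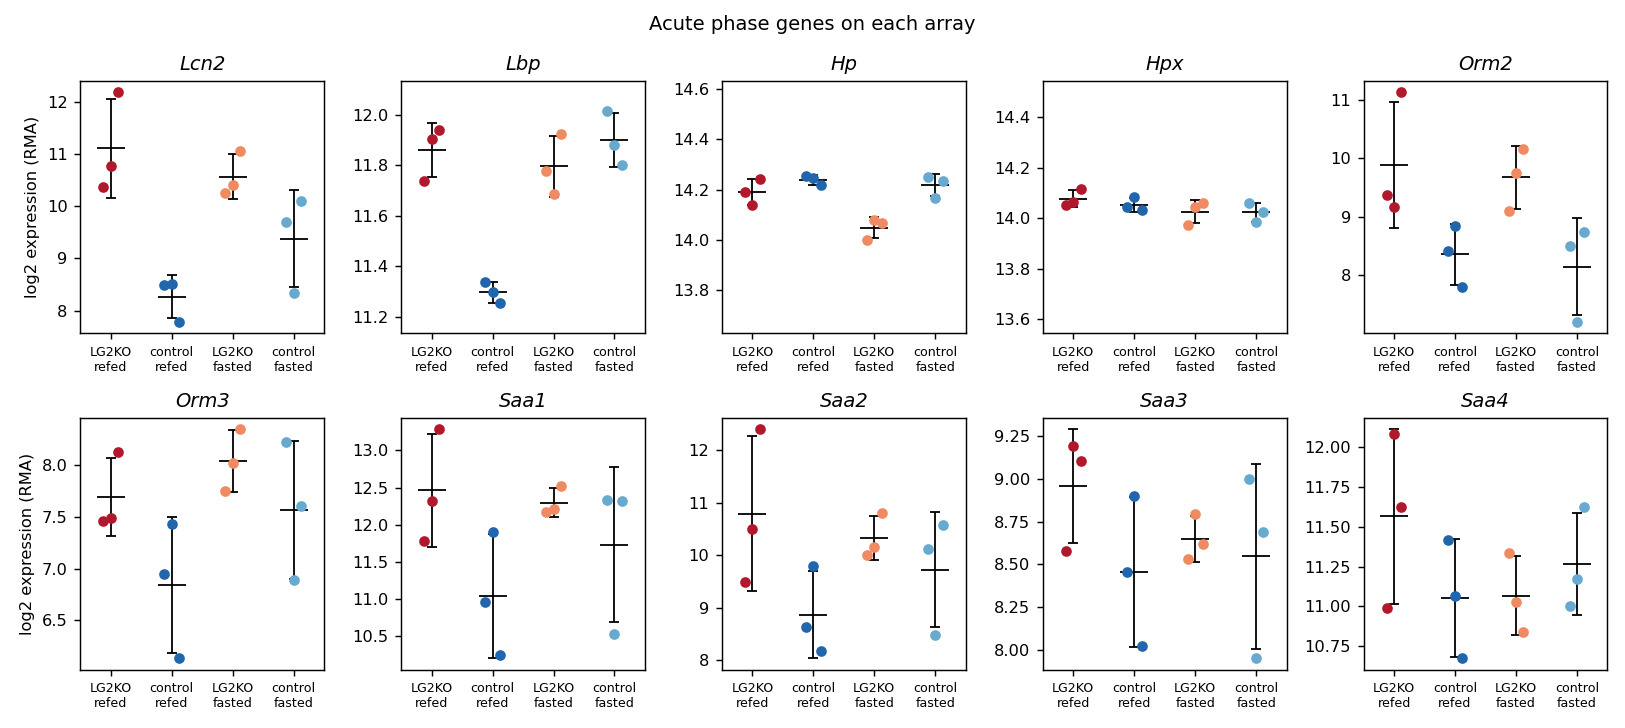
Level of each gene on each array, on the log2 scale of the deposited values, by its probe set of highest mean. Points are arrays (3 per group, each a pool of 3 animals), and bars give the mean and SD. The 6 LG2KO arrays of Lcn2 lie between 10.24 and 12.17, all above the 6 control arrays, while Lbp is low in refed controls alone among the 4 groups.

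In fasted livers 0 of the 10 members passed between LG2KO and control in limma's test, and 3 had an unadjusted p below 0.05, namely Lcn2, Orm2 and Hp. Of all genes 0.396% passed and 5.20% had an unadjusted p below 0.05. Lcn2 was at 10.24, 10.40 and 11.06 in fasted LG2KO livers, against 9.70, 8.34 and 10.10 in fasted controls. All LG2KO arrays were higher, by 0.14 between the nearest pair of arrays, and the difference was 1.19 ± 0.48 with a 95% interval of 0.14 to 2.24 (adjusted p = 0.851). Leaving out the lowest control array, replicate 2, gave 0.66, and leaving out the third LG2KO array, 1 of the pair that stand apart, gave 0.94. Orm2 was at 9.11, 9.74 and 10.17 in fasted LG2KO livers, against 8.49, 7.21 and 8.74 in fasted controls. Its difference of 1.52 ± 0.51 (adjusted p = 0.57) stood beside 1.53 in the refed state. These 2 members had all fasted LG2KO arrays above all fasted control arrays, as did 4.67% of all genes.

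Hp stood at lower values in fasted LG2KO livers, at 14.00, 14.08 and 14.07, against 14.25, 14.17 and 14.23 in fasted controls. The groups did not overlap and the difference was -0.17 ± 0.04, yet it did not pass (adjusted p = 0.178). Hpx was at 13.97, 14.04 and 14.06 in fasted LG2KO livers, against 14.06, 13.99 and 14.02 in fasted controls, which overlapped. Lbp on its brighter probe set was at 11.78, 11.69 and 11.93 in fasted LG2KO livers, against 12.02, 11.88 and 11.80 in fasted controls (-0.10 ± 0.08). On its dimmer probe set the difference was 0.26 ± 0.13, with all LG2KO arrays above all controls, and Lbp did not pass on either probe set.

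For Saa1, Saa2, Saa3 and Orm3 a single control array set much of the fasted difference. Saa1 was at 12.17, 12.21 and 12.52 in fasted LG2KO livers, against 12.34, 10.53 and 12.33 in fasted controls. Saa2 was at 10.01, 10.16 and 10.80 in fasted LG2KO livers, against 10.11, 8.49 and 10.57 in fasted controls. In both, control fasted replicate 2 was the low one, and without it the differences of 0.57 and 0.60 became -0.03 and -0.02. Saa3 was at 8.53, 8.80 and 8.62 in fasted LG2KO livers, against 9.0002, 7.95 and 8.69 in fasted controls, and its difference of 0.10 became -0.19 without that array. Orm3 was at 7.75, 8.02 and 8.35 in fasted LG2KO livers, against 8.22, 6.89 and 7.60 in fasted controls, and its difference of 0.47 became 0.13 without control fasted replicate 2. Saa4 was at 11.33, 11.03 and 10.84 in fasted LG2KO livers, against 11.004, 11.17 and 11.62 in fasted controls. Groups overlapped for all 5 of these genes.

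**Figure D2:**
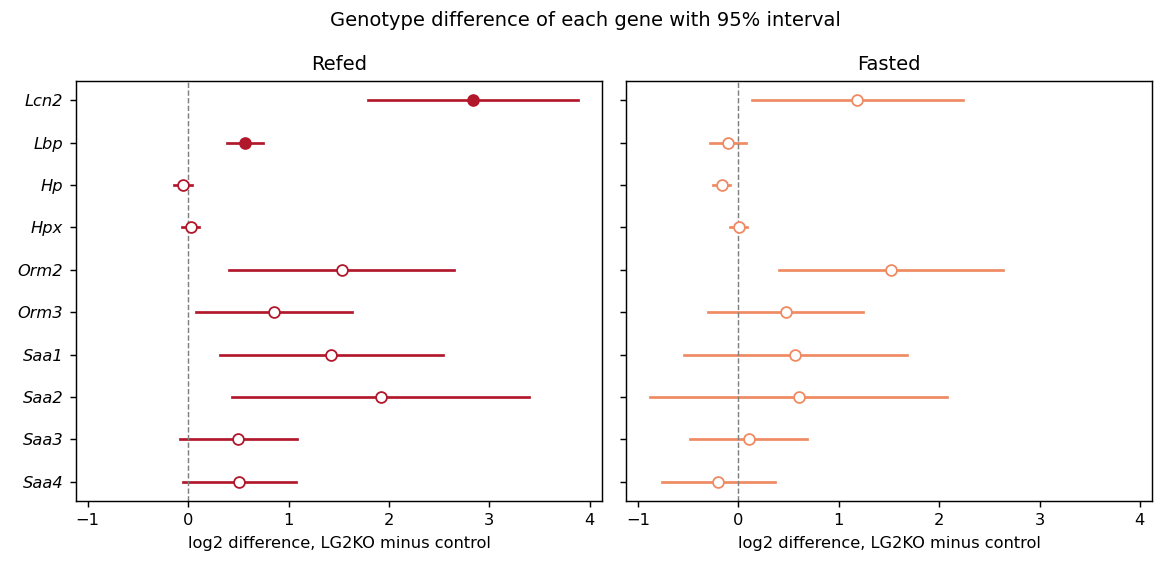
Difference of LG2KO minus control for each gene on the log2 scale in refed (left) and fasted livers (right), with lines for the 95% interval of limma's test (n = 3 arrays per group) and filled points for genes that passed. Only Lcn2, at 2.84, and Lbp, at 0.57, are filled, both in refed livers.

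Taking the genotype difference as the mean of both feeding states, 1 of the 10 members passed, Lcn2, against 1.02% of all genes. Lcn2 averaged 10.83 on the 6 LG2KO arrays and 8.82 on the 6 control arrays, a difference of 2.01 ± 0.34 or 4.03-fold (limma, adjusted p = 0.0164). It passed under each of the 21 alternatives run, including each array left out in turn, with adjusted p-values of at most 0.0425. The lowest LG2KO value was 10.24 and the highest control value 10.10. Orm2 averaged 9.78 on LG2KO arrays and 8.25 on control arrays, and its difference of 1.53 ± 0.36 missed the threshold (adjusted p = 0.0852). For Orm2 too the lowest LG2KO array, at 9.11, was above the highest control array, at 8.84. Lcn2 and Orm2 were thus the 2 of the 10 members with all 6 LG2KO arrays above all 6 control arrays, as were 0.528% of all genes. Lbp was at 0.23 ± 0.06 on its brighter probe set (adjusted p = 0.103), and on its dimmer probe set at 0.55 ± 0.09 (adjusted p = 0.0192 in the fit over all probe sets, where 0.521% passed).

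After refeeding, Lbp passed in control livers, and whether its response differed between genotypes is tested by the interaction. Lbp fell by 0.60 ± 0.08 to a mean of 11.30 in refed controls, against 11.90 in fasted controls (1.52-fold, adjusted p = 0.000709), and it was the 1 member of 10 that passed where 6.46% of all genes did. Its refed control arrays lay at 11.25 to 11.34, all below the fasted control arrays at 11.80 to 12.02. The call held when each array was left out in turn, with adjusted p-values of at most 0.0133 over all alternatives. On the dimmer probe set the difference was -0.28 ± 0.13 (adjusted p = 0.369 in the fit over all probe sets) and the groups overlapped. In LG2KO livers Lbp on its brighter probe set averaged 11.86 after refeeding and 11.80 in the fasted state. That difference was 0.07 ± 0.08 with a 95% interval of -0.11 to 0.24. On the dimmer probe set the refed LG2KO arrays all lay above the fasted LG2KO arrays. The difference there was 0.28 ± 0.13 and did not pass (adjusted p = 0.376 in the fit over all probe sets). The comparison of refed controls with refed LG2KO and that of refed with fasted controls share the 3 refed control arrays, so the calls of Lbp in them are not independent.

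**Figure D3:**
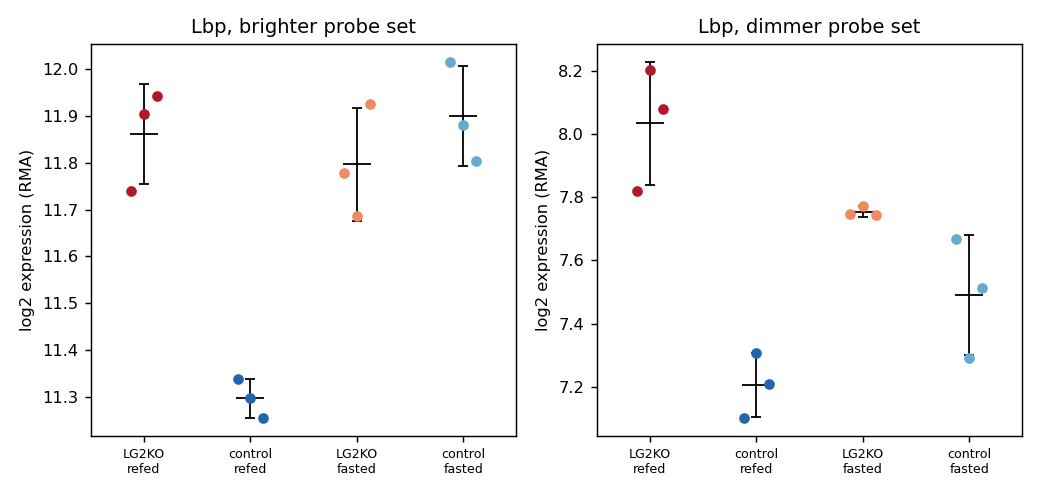
Level of Lbp on each array by its 2 probe sets, on the log2 scale. Points are arrays (3 per group), and bars give the mean and SD. Refed controls have the lowest mean on both probe sets, with arrays at 11.25 to 11.34 on the brighter one, whereas fasted controls reach the LG2KO groups on the brighter probe set and not on the dimmer one.

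In LG2KO livers 0 of 10 members passed between the refed and fasted states in limma's test, where 7.05% of all genes passed, and 1 had an unadjusted p below 0.05, against 18.2% of all genes. That member was Hp, with a mean of 14.19 in refed LG2KO livers and 14.05 in fasted LG2KO livers, which did not overlap (0.14 ± 0.04, adjusted p = 0.056). It crossed the threshold under 4 alternatives, among them the fit without the pair of arrays that stand apart (adjusted p = 0.0457). In control livers Lcn2 had an unadjusted p below 0.05, as did 16.7% of all genes, with a mean of 8.27 in refed controls and 9.38 in fasted controls (-1.11 ± 0.48, adjusted p = 0.257).

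Whether feeding altered the genotype difference was tested by the interaction. It passed for 0 of the 10 members and for 0.0055% of all genes in limma's test, and 2 members, Lbp and Lcn2, had an unadjusted p below 0.05, as did 4.73% of all genes. The estimate was above 0 for 10 of the 10 members and for 54.8% of all genes, with a median of 0.53 against 0.02 over all genes. This was not particular to the members. It was above 0 for 19 of 22 further genes that rise in the acute phase, 17 of 20 signal transducers and transcription factors and 12 of 13 macrophage markers. It was above 0 for 4 of 11 genes that go down in the acute phase and 5 of 11 lymphocyte markers. Most members varied together over the arrays, so their signs are not independent. On the brighter probe set of Lbp the genotype difference was 0.67 ± 0.12 greater in the refed than in the fasted state. Its 95% interval was 0.42 to 0.92 (adjusted p = 0.174). On the dimmer probe set the genotype difference was 0.56 ± 0.18 greater (adjusted p = 0.999 in the fit over all probe sets). For Lcn2 it was 1.65 ± 0.68 greater, with an interval of 0.17 to 3.13 (adjusted p = 0.99). For Orm2 the interaction was 0.01 ± 0.73, with an interval of -1.58 to 1.59. The order of the group means of Lcn2 was LG2KO refed at 11.10, LG2KO fasted at 10.57, control fasted at 9.38 and control refed at 8.27, and no neighbours in that order differed by the test. For Lbp the order depended on the probe set. On the brighter it was control fasted at 11.90, LG2KO refed at 11.86, LG2KO fasted at 11.80 and control refed at 11.30. There the gap from control refed to both of its comparison groups passed, and the other genotype and feeding differences did not. On the dimmer it was LG2KO refed at 8.03, LG2KO fasted at 7.75, control fasted at 7.49 and control refed at 7.21, as for Lcn2. Of the gaps between groups there, only that between refed LG2KO and refed controls passed in the fit over all probe sets.

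Most members were high on the same arrays and low on the same arrays. On LG2KO refed replicate 3, 9 of the 10 members were among their 3 highest values and 5 had their highest value of the 12 arrays. On control refed replicate 3, 6 members had their lowest value, and 7 were among their 3 lowest on each of control refed replicate 1 and control fasted replicate 2. With the group means removed, Pearson's r over the 12 arrays was 0.95 for Lcn2 with Orm2, 0.95 for Lcn2 with Saa2, 0.94 for Saa1 with Saa2 and 0.91 for Saa1 with Orm3, out of 45 pairs of members. These are among the highest. For Lcn2 with Lbp it was 0.46, and for Saa4 with each of the other members it lay between -0.19 and 0.39. These are descriptions over arrays that were normalised together, and the Saa and Orm pairs may share signal between copies.

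Some neutrophil transcripts followed part of this pattern and others did not. S100a8 was at 6.15, 6.42 and 7.90 in refed LG2KO livers, against 5.91, 6.62 and 5.97 in refed controls. It was at 5.39, 6.53 and 7.47 in fasted LG2KO livers, against 6.18, 5.33 and 6.79 in fasted controls. LG2KO refed replicate 3, on which Lcn2, Orm2, Saa1 and Saa2 were highest, was thus also the highest array of S100a8, and control fasted replicate 2 the lowest. S100a9, Ngp, Mpo, Elane, Csf3r and Cxcr2 were also highest on LG2KO refed replicate 3. Camp and Mmp9 were highest on LG2KO fasted replicate 3, Ltf on LG2KO fasted replicate 2 and Mmp8 on control refed replicate 3. Of 13 neutrophil markers 11 were measured, 9 of them below the median of genes, and their mean level ranged from 5.03 to 5.79 in refed LG2KO livers, against 4.91 to 5.15 in refed controls. It ranged from 4.88 to 5.59 in fasted LG2KO livers, against 4.91 to 5.18 in fasted controls. None of the 11 passed in either genotype comparison. The 13 of 14 macrophage markers that were measured had mean levels of 8.99 to 9.35 in refed LG2KO livers, against 8.97 to 9.10 in refed controls, and of 8.78 to 9.16 in fasted LG2KO livers, against 8.98 to 9.44 in fasted controls. The part of these cells in the levels of Lcn2, which neutrophils also carry, and of Saa3 was not tested. Control fasted replicate 3, the array with pancreatic transcripts, was the highest fasted control array of Lcn2, Orm2, Saa2 and Saa4, and without it the fasted difference of Lcn2 was 1.55.

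**Figure D4:**
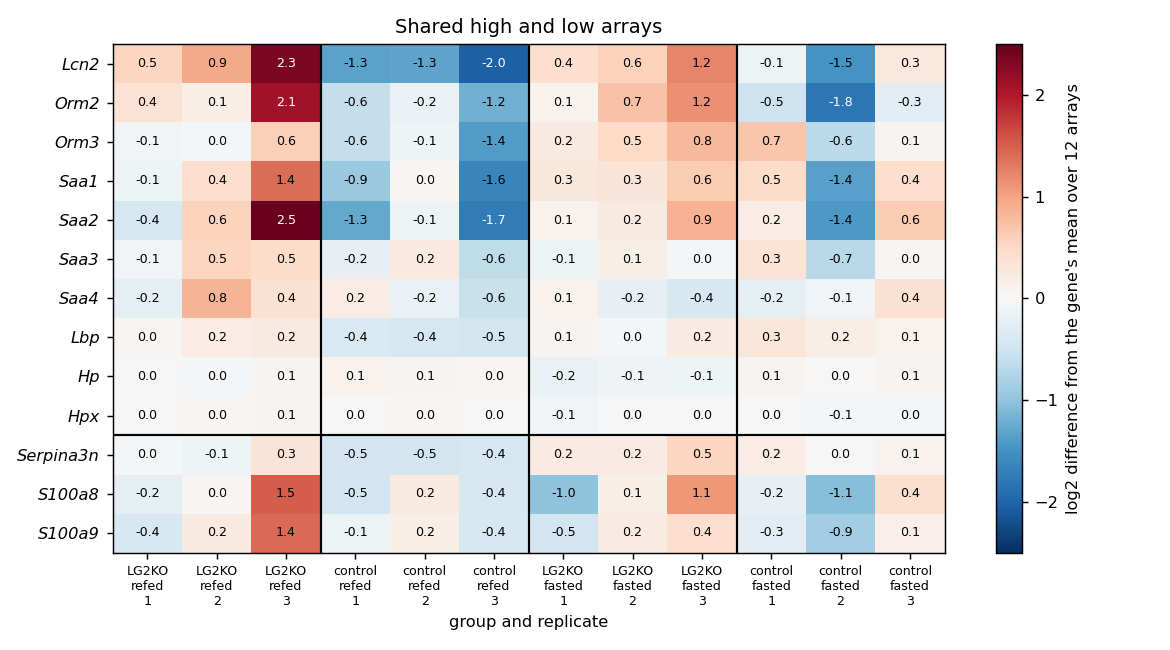
Log2 difference of each gene from its own mean over the 12 arrays, by array. The 10 acute phase genes stand above the line, and Serpina3n and the neutrophil genes S100a8 and S100a9 below it. LG2KO refed replicate 3 is high and control fasted replicate 2 is low for Lcn2, Orm2, Saa1, Saa2, S100a8 and S100a9.

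Of 22 measured further genes that rise in the acute phase, 0 passed between genotypes in the refed or the fasted state in limma's test, with 4 and 0 at an unadjusted p below 0.05. Over all genes, 9.13% in the refed and 5.20% in the fasted state had an unadjusted p below 0.05. The median difference of the 22 genes was 0.10 in refed livers (all genes 0.02), against 0.71 for the 10 members. Both lists were chosen with earlier results of these data known, so these medians only describe them. Serpina3n, an inhibitor of serine proteases, came nearest, at 0.52 ± 0.11 in refed livers (adjusted p = 0.0875). It passed over both feeding states, at 0.37 ± 0.08 (adjusted p = 0.0489). It fell by 0.56 ± 0.11 in refed compared with fasted controls (adjusted p = 0.00925). Il1rn, a blocker of the interleukin 1 receptor, fell by 0.53 ± 0.14 there as well. Orm1, the close copy of Orm2 and Orm3, was at 0.27 ± 0.11 between refed LG2KO and refed control livers and did not pass. Of 11 measured genes that go down in the acute phase 0 passed between genotypes in either state, with 2 and 4 at an unadjusted p below 0.05 (all genes 9.13% and 5.20%) and medians of -0.02 and 0.01. Among them Ahsg, which encodes fetuin A, was at -0.10 ± 0.04 in refed livers (adjusted p = 0.413). F12 went the other way without overlap, at 12.63, 12.61 and 12.65 in refed LG2KO livers, against 12.48, 12.42 and 12.52 in refed controls. With refeeding Igfals passed as higher in both genotypes, and F12 passed as lower in controls.

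The cytokine route to these genes gave no call between genotypes. Of 20 measured ligands and receptors 0 passed in the refed and 0 in the fasted state, with 3 and 0 at an unadjusted p below 0.05 (all genes 9.13% and 5.20%). Of these, 9 lay below the median of genes. Il6, which encodes interleukin 6, lay at 2.35 to 2.69, near the lowest deposited value of 1.77. A missing call on such dim genes says little about them. In refed livers 13 of their differences were above 0 and 7 below. Cd14, the receptor to which Lbp delivers lipopolysaccharide, was at 0.54 ± 0.19 in refed livers (adjusted p = 0.354). Ly96 was lower without overlap, at 4.84, 4.94 and 4.84 in refed LG2KO livers, against 5.67, 5.22 and 5.16 in refed controls. Of 20 signal transducers and transcription factors 0 passed in either state, with 5 and 1 at an unadjusted p below 0.05 (all genes 9.13% and 5.20%) and medians of 0.13 and -0.09. Here too 13 differences were above 0 and 7 below in refed livers. Socs3, a target and brake of STAT3, was at 1.43 ± 0.50 in refed livers (adjusted p = 0.362), and Cebpb was at 0.44 ± 0.11 (adjusted p = 0.15). Jak1 was lower without overlap, at 7.57, 7.82 and 7.96 in refed LG2KO livers, against 8.61, 8.05 and 8.11 in refed controls. With feeding, calls did appear: in controls Cebpd fell by 1.39 ± 0.24, Cebpb fell by 0.58 ± 0.11, and Nfkbia, Hnf4a and Creb3l3 also fell after refeeding, 5 of the 20. In LG2KO livers Cebpd and Creb3l3 fell, and Cebpa and Relb rose. The interleukin 6 receptor gene Il6ra fell by 1.03 ± 0.15 in refed compared with fasted LG2KO livers and fell by 0.88 ± 0.15 in refed compared with fasted controls.

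Proteins that the members bind or hand their cargo to gave no call between genotypes either. Of 14 measured binding partners 0 passed in either state, with 5 and 2 at an unadjusted p below 0.05 (all genes 9.13% and 5.20%). Scarb1, a receptor of high-density lipoprotein, was at 0.34 ± 0.07 in refed livers (adjusted p = 0.081), and it fell by 0.64 ± 0.07 after refeeding in controls and fell by 0.35 ± 0.07 in LG2KO livers. Of 21 genes of haem and iron handling 0 passed between genotypes in either state, with 6 and 3 at an unadjusted p below 0.05 (all genes 9.13% and 5.20%) and medians of 0.01 and -0.07. With refeeding the iron transporter gene Slc11a2 rose by 1.05 ± 0.13 in LG2KO livers and by 0.47 ± 0.13 in controls, and Alas1, the first enzyme of haem synthesis, fell by 0.50 ± 0.10 in LG2KO livers and fell by 0.44 ± 0.10 in controls.

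The genes whose pattern over the 12 arrays was most like that of Lcn2, among the 9087 genes with the higher mean levels, were Tcn2, Tmem42 and St6galnac6. Pearson's r was 0.92, 0.90 and 0.89 and Spearman's rho 0.92, 0.95 and 0.90, and without the 2 arrays farthest from the median of Lcn2 r was 0.88, 0.88 and 0.90. Tcn2 encodes transcobalamin 2, a plasma carrier of vitamin B12, and averaged 12.53 in refed LG2KO livers and 12.19 in refed controls. St6galnac6 lies on chromosome 2 at chr2:32599709-32620809, which is 212 kb from Lcn2, and averaged 9.38 in refed LG2KO livers and 9.04 in refed controls. Most like the mean of Saa1 and Saa2 were Ldhd, Tff3 and the neutrophil gene S100a9, with r of 0.88, 0.83 and 0.82. Their rho was 0.83, 0.64 and 0.78, and without the 2 farthest arrays r was 0.73, 0.83 and 0.71. Most like Hp were Creg1, Sephs1 and Sorl1, with r of 0.87, 0.87 and 0.86. Here rho was 0.63, 0.81 and 0.83, and without the 2 farthest arrays r was 0.70, 0.83 and 0.72. Since the genes were picked by this likeness, neither it nor their differences between groups were tested here.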

How the data were processed

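Liver RNA was hybridised to 12 Affymetrix mouse expression arrays. Per the submitters' processing notes the authors normalised the arrays with RMA, and the deposited table holds log2 values for each probe set. RMA subtracts background, equalises the distributions of the arrays and combines the probes of a set, and no software version is given here. The platform annotation gave 1 symbol to 34958 of 45101 probe sets, which were used; 932 had several symbols and 9211 are unnamed here. Matching to RefSeq changed 0 symbols. Each gene is represented by its brightest probe set on average, with no filter on dim genes, and 9012 of 18194 genes had more than 1 probe set.

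For the tests, limma 3.58.1 (R 4.3.3) fitted a mean for each group to all 12 arrays, with an intensity trend in eBayes and no replicate block. Tests were two-sided, and p-values were adjusted by Benjamini-Hochberg separately in each of 6 comparisons. Errors of differences are standard errors of that fit. P-values reflect the spread between pools of 3 animals, and precision is limited by how few arrays there are. Same-numbered arrays of different groups deviated together (r above 0.1) in 5 of 18 pairs, with r between -0.42 and 0.71, so the numbers were not taken as pairing.

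The members, gene lists, tests and alternatives were chosen with earlier results of these data known. All members are described, and Slc2a2 checks the labels. Of each other list the genes that passed and up to 4 others with the smallest p could be named. The measured neutrophil markers were all named, by their highest array. The 3 genes most like Lcn2, the mean of Saa1 and Saa2, and Hp were taken by Pearson's r. Start regions were aligned globally. Figures used matplotlib 3.10.9 (Python 3.11.15).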

Additional observations from a re-analysis of the deposited data

How the results depend on the processing

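Of 1060 values of single members under the alternatives, 1041 kept their side of the threshold, 12 no longer passed, 7 newly passed and 0 called values changed sign, while 26 uncalled values did. Between genotypes in refed livers, 2 members passed, against 1 with robust estimation (Lbp; Lcn2 adjusted p = 0.0628), 1 without control refed replicate 1 and LG2KO fasted replicate 3, 0 with only the groups compared (0.0938 for Lcn2 and 0.0811 for Lbp), and 0 to 2 with single arrays left out. Over all alternatives the adjusted p there ranged from 0.0125 to 0.111 for Lcn2 and from 0.00234 to 0.0967 for Lbp. Between refed and fasted LG2KO livers, 1 member (Hp) passed in place of 0 with array weights, with the more highly expressed genes only, with arrays centred on their median and without the pair of arrays (adjusted p = 0.0196 to 0.0459, and 0.0196 to 0.386 over all alternatives). In the interaction 1 member passed in place of 0 with array weights (Lbp, adjusted p = 0.015). For the mean of both feeding states 2 passed in place of 1 with array weights (Orm2, adjusted p = 0.0421) and with the mean of a gene's probe sets (Lbp, adjusted p = 0.0161). The cause of these changes was not tested. With a replicate block, members called were 2, 0, 0, 1, 0 and 1 in the 6 comparisons, as without it, and of all genes those called were 53, 67, 1291, 1165, 6 and 144, against 69, 72, 1283, 1176, 1 and 185. With array weights the genes called were 180, 203, 3578, 2454, 20 and 443. They were 41 in refed livers and 122 for the mean of both states without the intensity trend, 43 in refed livers with robust estimation, 15, 44 and 695 with only the groups compared (refed genotype, fasted genotype, control refeeding), 3187 and 2202 in the feeding comparisons without the pair of arrays, and 2 with robust estimation and 5 over all probe sets in the interaction. With single arrays left out they went down to 8, 30, 697, 706 and 88 in the comparisons other than the interaction. Hp and Hpx lay near the top of the scale, and whether this compresses their differences was not tested.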

Other observations

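Among the marker lists of other cells, 3 genes passed between feeding states, and they are named because they passed. Stab2, a scavenger receptor of sinusoidal endothelial cells, averaged 9.06 in refed controls and 9.48 in fasted controls (limma, adjusted p = 0.0173). Pdgfrb, a receptor of stellate cells, averaged 6.99 in refed LG2KO livers and 6.45 in fasted LG2KO livers (adjusted p = 0.0159). Cidec, a lipid droplet protein listed among the fat cell markers, fell by 1.42 ± 0.35 in refed compared with fasted LG2KO livers and fell by 1.64 ± 0.35 in refed compared with fasted controls.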
